A study of Arabidopsis thaliana with 48 samples.

Results

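The 10 genes described here encode parts of the machinery that takes a plant cell through division. They are 5 cyclins (CYCA1;1, CYCB1;1, CYCB1;2, CYCB1;4 and CYCD3;1), 2 cyclin-dependent kinases of the plant-specific B type (CDKB1;1 and CDKB2;1), the cytokinesis syntaxin KNOLLE (KN) and both copies of the sliding clamp of DNA replication (PCNA1 and PCNA2). They were chosen by a list of locus identifiers (AT1G44110, AT4G37490, AT5G06150, AT2G26760, AT4G34160, AT3G54180, AT1G76540, AT1G08560, AT1G07370 and AT2G29570, in the order above) and not by a cut on their values. All 10 identifiers were among the 27420 genes of the count table, and 10 of the 10 passed the filter on low counts that left 17981 genes for testing. RNA was counted in nuclear and cytoplasmic fractions of 14-d-old Arabidopsis thaliana. The growth protocol speaks of rosettes, while the tissue label reads seedling. The 2 genotypes were the wild type Col-0 and tho5ab, a mutant of both genes for subunit 5 of the THO complex, which joins mRNA as it is made and takes part in its export. The alleles of tho5ab are not given in the sources used here. All plants grew with 16 h of light at 21 °C and 8 h of darkness at 18 °C, and were taken either from 21 °C or straight after a 3 h stay at 37 °C, without recovery. Each combination of genotype, fraction and temperature is a group, 8 in all, with 6 libraries per group and 48 in total.

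Cyclins bind cyclin-dependent kinases and switch them on, and different cyclins serve different steps of the cycle. D-type cyclins act at the decision to divide, A-type cyclins during DNA synthesis and up to mitosis, and B1-type cyclins together with B-type kinases at the entry into mitosis. KN fuses the membrane vesicles that form the new cell plate, and PCNA holds DNA polymerase on its template. In a rosette such transcripts are known mainly from the shoot meristem, young leaf primordia and the stomatal lineage, since mature leaf cells have left the mitotic cycle. Transcription of many mitotic genes depends on MYB3R factors, which recognise a promoter element named MSA (mitosis-specific activator).

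Cytoplasmic libraries held 1025185 to 2174279 counts and nuclear ones 2601946 to 19914838, so values from the cytoplasm rest on far fewer reads. THO5B, one of the mutated genes, had 0 counts in each of the tho5ab cytoplasmic libraries and 58 and 9 summed counts in tho5ab nuclei at 21 °C and 37 °C, against 749 and 516 in Col-0 nuclei. THO5A was not lower in every tho5ab group: in nuclei at 21 °C it ran from 76.3 to 118 CPM, the count relative to the scaled library total,, against 30.8 to 37.6 CPM in Col-0. At 37 °C tho5ab nuclei ran from 15.6 to 118 CPM against 175 to 205 CPM, and the 118 CPM belonged to replicate 7. In 16 of the 48 libraries, genes nested within a gene of the opposite strand were counted far more often, compared with their host, than in the other 32. These 16 were not balanced over temperature. In the cytoplasm of each genotype they were 3 libraries at 21 °C and 1 at 37 °C. In nuclei they were 2 and 2 in Col-0, and 3 and 1 in tho5ab. They are followed below for genes with an opposite neighbour and for some without one. Nothing in the labels says that libraries of a group came from separate plants, so p-values measure only the spread between these libraries, which may be technical.

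The promoters of 4 of the genes are shown first, since the MSA element is the known mark of mitotic promoters. The 250 bases before the annotated start of 9 of the genes were read from the RefSeq copy of TAIR10.1 and searched on both strands for the MSA core letters AACGG, whose reverse is CCGTT. Capitals mark each match, and sequences run 5′ to 3′ along the gene's own strand. They lie at chr1:16777353-16777602 (CYCA1;1, minus strand), chr4:17624309-17624558 (CYCB1;1, minus), chr5:1861704-1861953 (CYCB1;2, minus) and chr1:2711001-2711250 (KN, minus).
CYCA1;1: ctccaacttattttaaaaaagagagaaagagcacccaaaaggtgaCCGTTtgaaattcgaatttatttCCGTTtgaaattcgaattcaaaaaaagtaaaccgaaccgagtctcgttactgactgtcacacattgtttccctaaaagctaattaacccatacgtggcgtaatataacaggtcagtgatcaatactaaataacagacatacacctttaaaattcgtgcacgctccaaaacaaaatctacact
CYCB1;1: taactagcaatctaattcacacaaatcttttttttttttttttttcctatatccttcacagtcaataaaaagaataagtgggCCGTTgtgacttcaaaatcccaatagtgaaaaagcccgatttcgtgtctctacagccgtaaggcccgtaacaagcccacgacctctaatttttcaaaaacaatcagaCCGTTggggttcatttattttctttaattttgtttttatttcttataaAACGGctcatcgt
CYCB1;2: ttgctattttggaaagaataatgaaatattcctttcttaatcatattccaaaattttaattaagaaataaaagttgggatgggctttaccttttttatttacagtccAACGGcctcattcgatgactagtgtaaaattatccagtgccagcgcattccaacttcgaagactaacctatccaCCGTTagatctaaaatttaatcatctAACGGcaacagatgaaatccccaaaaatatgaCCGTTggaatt
KN: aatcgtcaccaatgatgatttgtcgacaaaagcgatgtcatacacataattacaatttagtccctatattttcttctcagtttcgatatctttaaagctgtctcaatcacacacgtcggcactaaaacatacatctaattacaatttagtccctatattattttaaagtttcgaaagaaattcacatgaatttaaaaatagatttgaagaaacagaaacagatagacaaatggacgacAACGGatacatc
The core occurred 4 times before CYCB1;2, 3 times before CYCB1;1, 2 times before the A-type cyclin, and 1 time each before KN and the D-type cyclin. It was not found before CYCB1;4, CDKB1;1 or either PCNA gene. Over 27419 promoters of the same length, 20.6% held it at least 1 time, 3.62% at least 2 times and 0.737% at least 3 times, so the single match of KN or of the D-type cyclin is common, while 3 or more are rare. The E2F site letters TTTCCCGC and TTTGGCGC, held by 0.616% and 0.361% of all promoters, matched none of the 9. A match of letters describes the window and does not show that a factor binds there.

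**Figure D1:**
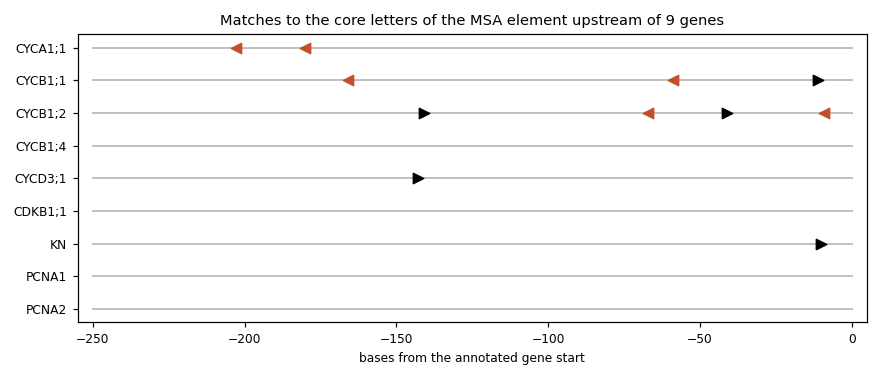
Positions of the letters AACGG in the 250 bases before each of 9 genes, with distance from the annotated gene start in bases on the horizontal axis and 1 gene per row. Black markers are matches on the gene's own strand and orange markers matches on the opposite strand. CYCB1;2 has 4 matches and CYCB1;1 has 3, while 4 genes have none.

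At 21 °C, all 10 transcripts were rare and KN was the most abundant per length in the cytoplasm. In Col-0 cytoplasm its mean level was 25.3 CPM per kb of exon, followed by PCNA2 at 13.6, CDKB2;1 at 10.9 and PCNA1 at 8.22, while the lowest was CYCB1;4 at 1.02 CPM per kb. In Col-0 nuclei the order differed: CDKB2;1 stood at 4.88 CPM per kb, KN at 4.69 and the D-type cyclin CYCD3;1 at 4.57, and the lowest was CDKB1;1 at 0.441. The cytoplasmic libraries held between 3 and 69 counts of KN and at most 9 counts of the A-type cyclin, so spreads within a cytoplasmic group are wide. When the 8 groups were put in order of their means, neighbouring groups overlapped in their libraries for every gene, with 4 exceptions. These were the step from 21 °C to 37 °C in tho5ab nuclei for the A-type cyclin, the step from Col-0 cytoplasm at 37 °C to tho5ab nuclei at 37 °C for CDKB2;1 and for PCNA2, and the step from 21 °C to 37 °C in Col-0 nuclei for PCNA2.

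**Figure D2:**
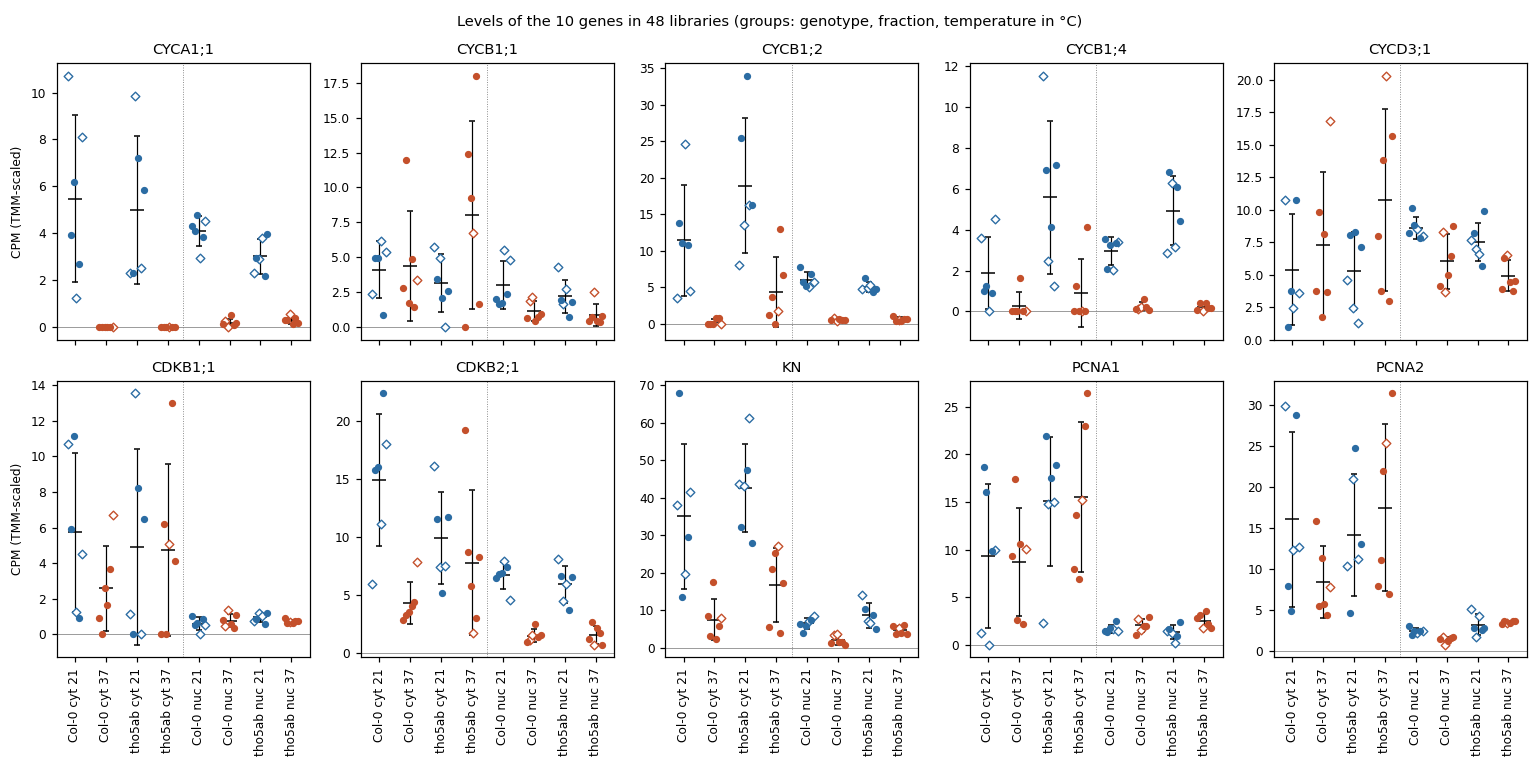
CPM of the 10 genes in each library (vertical axes, linear, 1 panel per gene) over the 8 groups (horizontal axes), with 21 °C in blue, 37 °C in red, open diamonds for the 16 libraries with high opposite-strand counts, and bars for mean ± SD of 6 libraries. CYCA1;1 lies at 0 CPM in all heated cytoplasmic libraries, and PCNA2 in heated tho5ab nuclei lies between 3.29 and 3.72 CPM, above the 0.796 to 1.73 CPM of heated Col-0 nuclei.

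In nuclei, the A- and B-type cyclins, CDKB2;1 and KN passed the test as lower at 37 °C than at 21 °C in both genotypes. In the cytoplasm CYCB1;1 did not pass in either genotype and CDKB2;1 passed in Col-0, and the D-type cyclin, CDKB1;1 and the PCNA genes did not pass in any of the 4 heat comparisons. At an edgeR adjusted p below 0.05, 5 of 10 genes fell in the cytoplasm of Col-0, where 19.7% of all tested genes did, and 6 of 10 in its nuclei, against 23.8%. For tho5ab these were 4 of 10 in the cytoplasm, against 20.0%, and 6 of 10 in nuclei, against 27.1%. The A-type cyclin, CYCB1;2 and, though not in every alternative fit, CYCB1;4 and KN fell in all 4 comparisons. By edgeR, 0 of 10 genes rose in any of them (24.7%, 21.9%, 22.2% and 25.1% of all genes did), 1 was higher at an unadjusted p below 0.05 (CYCD3;1 in tho5ab cytoplasm), and DESeq2's Wald test called 0 higher. In other edgeR fits CYCD3;1 was called higher in tho5ab cytoplasm without replicate 2 (1.26), and PCNA1 in tho5ab nuclei when only those groups were fitted (0.96). CYCB1;1 was called higher in tho5ab cytoplasm without replicate 1 (1.87) and with a covariate for libraries with high opposite-strand counts (1.75). The median log2 fold change of the 10 genes was −1.47 and −1.61 in cytoplasm and nuclei of Col-0, and −0.19 and −1.13 in those of tho5ab, beside 0.07, −0.06, −0.01 and −0.07 over all tested genes, and was the same with CYCA1;1 at its bound in the cytoplasm. Under library totals in place of TMM (trimmed mean of M values) scaling, the median of all genes moved by −0.15, −0.15, −0.55 and −0.38, and the share of all calls that were higher went from 55.6%, 48.0%, 52.6% and 48.1% to 45.7%, 37.6%, 22.5% and 27.1%, in the same order. In tissue RNA, fewer dividing cells and less RNA per dividing cell cannot be told apart.

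The A-type cyclin, which pairs with kinases from DNA synthesis to mitosis, became undetected in the heated cytoplasm. In Col-0 nuclei at 21 °C its lowest, median and highest libraries were 2.96, 4.19 and 4.78 CPM, and at 37 °C they were 0, 0.161 and 0.501 CPM. In tho5ab nuclei the values were 2.17, 2.91 and 3.99 CPM at 21 °C and 0.116, 0.289 and 0.554 CPM at 37 °C. Every heated nuclear library lay below every unheated one of its genotype. The log2 fold change was −4.33 ± 0.54 (SE, n = 6 and 6, edgeR adjusted p = 1.21e-08) in Col-0 nuclei and −3.34 ± 0.51 (edgeR adjusted p = 7.24e-07) in tho5ab nuclei. In the cytoplasm at 21 °C the libraries ran from 1.23 to 10.7 CPM in Col-0 and from 2.31 to 9.85 CPM in tho5ab, a total of 31 and 30 counts. After heat both genotypes had 0 counts over their 6 libraries, so the fall was at least 12.1-fold in Col-0 and at least 8.94-fold in tho5ab against a floor of 3 counts over the group (edgeR adjusted p = 1.08e-06 and 6.25e-06).

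CYCB1;2, the B1-type cyclin with the highest level per length in Col-0 at 21 °C, fell in both fractions. Its lowest, median and highest levels in Col-0 nuclei were 4.99, 5.75 and 7.74 CPM at 21 °C and 0.341, 0.492 and 0.740 CPM at 37 °C. In tho5ab nuclei they were 4.38, 4.79 and 6.20 CPM and then 0.349, 0.566 and 1.11 CPM. The ranges at the 2 temperatures were far apart in both genotypes, with log2 fold changes of −3.54 ± 0.46 (edgeR adjusted p = 8.15e-09) in Col-0 and −3.02 ± 0.44 (edgeR adjusted p = 1.29e-07) in tho5ab. In Col-0 cytoplasm, levels of 3.57, 10.9 and 24.7 CPM at 21 °C dropped to 0, 0 and 0.812 CPM, 63 counts against 2. The ratio of the counts, scaled to library size, was 36.6-fold, with an exact 95% interval of 9.73 to 309 that covers counting error only (edgeR adjusted p = 8.66e-08). In tho5ab cytoplasm, levels were 8.07, 16.3 and 34.0 CPM at 21 °C and 0, 2.702 and 13.0 CPM at 37 °C, so the 2 groups overlapped, and the log2 fold change was −2.04 ± 0.49 (edgeR adjusted p = 5.94e-04). Part of the CYCB1;2 transcript is 95.0% to 97.7% identical to that of CYCB1;5, so its counts may include reads of that copy.

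The other B1-type cyclins differed from each other. CYCB1;4 stood at 2.03, 3.30 and 3.53 CPM in Col-0 nuclei at 21 °C and at 0.0748, 0.181 and 0.626 CPM at 37 °C. In tho5ab nuclei it stood at 2.85, 5.25 and 6.80 CPM and then at 0, 0.154 and 0.435 CPM. No heated library reached an unheated one, and the log2 fold changes were −3.59 ± 0.62 (edgeR adjusted p = 4.08e-06) and −4.40 ± 0.63 (edgeR adjusted p = 6.10e-08). In the cytoplasm it was near the detection limit: 11 counts against 2 in Col-0, a 6.40-fold ratio with an interval of 1.40 to 59.4 (edgeR adjusted p = 0.0397), and 34 counts against 6 in tho5ab (log2 fold change −2.41 ± 0.77, edgeR adjusted p = 0.0101). The Col-0 cytoplasmic call held in 6 of 16 alternative fits. It was lost, with changes from −2.55 to −2.10, on leaving out any replicate but 4, which held both heated counts. Without the libraries of high opposite-strand counts it was lost too, and the change was −1.47 (edgeR adjusted p = 0.485). The tho5ab call was lost without replicate 1 (−1.84, edgeR adjusted p = 0.0797) and went to −4.38 without replicate 7. CYCB1;1, the cyclin whose promoter is widely used to mark cells about to divide, fell in nuclei at the edge of the threshold. Its libraries ran from 1.62 to 5.54 CPM at 21 °C and from 0.438 to 2.16 CPM at 37 °C in Col-0 nuclei (log2 fold change −1.43 ± 0.58, edgeR adjusted p = 0.0374), and from 0.748 to 4.28 and from 0.367 to 2.49 CPM in tho5ab nuclei (−1.41 ± 0.59, edgeR adjusted p = 0.0398). The ranges overlapped, and each call held in 11 of 17 alternative fits. In Col-0 nuclei the call was lost on leaving out any of replicates 1, 4, 5, 6 and 7 (changes from −1.41 to −1.002), and in tho5ab any of replicates 1, 2, 5, 6 and 7 (−1.45 to −0.95). The libraries with high opposite-strand counts were its highest ones in Col-0 nuclei, 4.80 to 5.54 CPM against 1.62 to 2.37 CPM in the others at 21 °C, and 1.85 to 2.16 against 0.438 to 0.935 CPM at 37 °C. Without those libraries the nuclear changes were −1.41 (edgeR adjusted p = 0.0372) and −1.37 (edgeR adjusted p = 0.0463). In the cytoplasm its log2 fold changes were 0.06 ± 0.69 in Col-0 and 1.35 ± 0.68 in tho5ab (edgeR adjusted p = 0.958 and 0.106). The tho5ab change was called higher in 2 alternative fits (1.75 and 1.87, edgeR adjusted p = 0.0182 and 0.0368).

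CDKB2;1, a kinase of the passage into mitosis, fell in 3 of the 4 comparisons. In Col-0 nuclei it stood at 4.58, 6.82 and 7.94 CPM at 21 °C and 0.899, 1.39 and 2.44 CPM at 37 °C, and in tho5ab nuclei at 3.70, 6.23 and 8.12 CPM and 0.675, 1.43 and 2.61 CPM. The 2 temperatures did not overlap in either genotype, and the changes were −2.18 ± 0.37 (edgeR adjusted p = 2.99e-06) and −1.94 ± 0.37 (edgeR adjusted p = 1.45e-05). Col-0 cytoplasm went from 5.96, 15.9 and 22.4 CPM to 2.79, 3.78 and 7.85 CPM, with some overlap (−1.81 ± 0.43, edgeR adjusted p = 5.25e-04). In tho5ab cytoplasm the levels were 5.15, 9.53 and 16.1 CPM at 21 °C and 1.69, 7.01 and 19.3 CPM at 37 °C, and the change of −0.33 ± 0.42 did not pass the test (edgeR adjusted p = 0.558). The B1-type kinase gene CDKB1;1, which acts in the last divisions of the stomatal lineage, did not pass in any of the 4, with changes from −1.13 ± 0.75 in Col-0 cytoplasm to 0.26 ± 0.64 in Col-0 nuclei. It had at most 13 counts in a cytoplasmic library. Both kinase genes overlap an opposite-strand neighbour, CDKB2;1 by 44 bp and CDKB1;1 by 71 bp. The neighbour of CDKB2;1, AT1G76530, also had lower means after heat, 12.6 and 3.19 CPM in Col-0 nuclei and 6.20 and 0.529 CPM in tho5ab nuclei, and its part in the CDKB2;1 counts was not tested. Without the libraries of high opposite-strand counts the nuclear changes of CDKB2;1 were −2.11 and −1.68 (edgeR adjusted p = 2.00e-05 and 2.85e-04).

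KN, the vesicle fusion protein of the cell plate, fell in all 4 comparisons, but to different levels. In Col-0 cytoplasm it went from 13.6, 33.9 and 67.9 CPM to 2.44, 6.85 and 17.5 CPM, and in Col-0 nuclei from 4.01, 6.73 and 8.42 CPM to 0.860, 1.43 and 3.64 CPM. The nuclear groups did not overlap and the cytoplasmic groups overlapped at 1 end (−2.23 ± 0.42, edgeR adjusted p = 1.90e-05 in the cytoplasm, and −1.78 ± 0.37, edgeR adjusted p = 7.51e-05 in nuclei). In tho5ab cytoplasm it went from 28.0, 43.4 and 61.3 CPM to 4.00, 19.2 and 27.1 CPM, without overlap (−1.37 ± 0.39, edgeR adjusted p = 0.00382). In tho5ab nuclei, levels of 5.004, 7.88 and 14.2 CPM at 21 °C stood against 3.57, 4.67 and 6.20 CPM at 37 °C, and the ranges overlapped. That change, −0.86 ± 0.34 (edgeR adjusted p = 0.0326), was called in 12 of 17 alternative fits and lost on leaving out replicate 1, 2 or 5 (−0.74, −0.73 and −0.87, edgeR adjusted p = 0.117, 0.0961 and 0.0680). Without the libraries of high opposite-strand counts it was −0.71 (edgeR adjusted p = 0.123). The last 464 bp of KN overlap NPQ1, a xanthophyll cycle gene on the opposite strand, whose mean level was also lower after heat, 54.9 against 127 CPM in Col-0 nuclei and 54.0 against 93.2 CPM in tho5ab nuclei. In the cytoplasm the NPQ1 means were 58.6 against 199 CPM in Col-0 and 56.2 against 148 CPM in tho5ab. How far NPQ1 reads entered the KN counts was not tested.

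The D-type cyclin and the replication clamps did not pass the edgeR test of all groups, though some passed in other fits. CYCD3;1, which answers to cytokinin at the entry into the cycle, had log2 fold changes of 0.39 ± 0.48 and 0.95 ± 0.47 in the cytoplasm of Col-0 and tho5ab, and −0.51 ± 0.36 and −0.62 ± 0.36 in their nuclei (edgeR adjusted p from 0.1002 to 0.543). Its nuclear libraries ran from 7.80 to 10.12 CPM at 21 °C and from 3.64 to 8.72 CPM at 37 °C in Col-0, with overlap. The change in tho5ab nuclei was called in 4 alternative fits (−1.02 to −0.58), and that in Col-0 nuclei by the Wald test (−0.61). PCNA1 had log2 fold changes between −0.14 ± 0.53 (Col-0 cytoplasm) and 0.91 ± 0.47 (tho5ab nuclei, edgeR adjusted p = 0.102). PCNA2 in Col-0 nuclei stood at 2.02, 2.44 and 3.03 CPM at 21 °C and 0.796, 1.55 and 1.73 CPM at 37 °C, so its groups did not overlap although the test was not passed (−0.76 ± 0.37, edgeR adjusted p = 0.0854). It was called there by the Wald test and when only those groups were fitted (−0.86 to −0.65). In Col-0 cytoplasm its change was −0.94 ± 0.41 (edgeR adjusted p = 0.0564), called in 4 of the alternative fits (−1.22 to −1.11, replicate 3 left out among them), and in tho5ab it was 0.30 ± 0.40 in the cytoplasm and 0.15 ± 0.36 in nuclei. Counting genes whose heated libraries all lay below the unheated ones gave 2 of 10 (6.97% of all genes) and 6 of 10 (25.5%) for cytoplasm and nuclei of Col-0, and 2 of 10 (5.11%) and 4 of 10 (23.9%) for those of tho5ab.

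**Figure D3:**
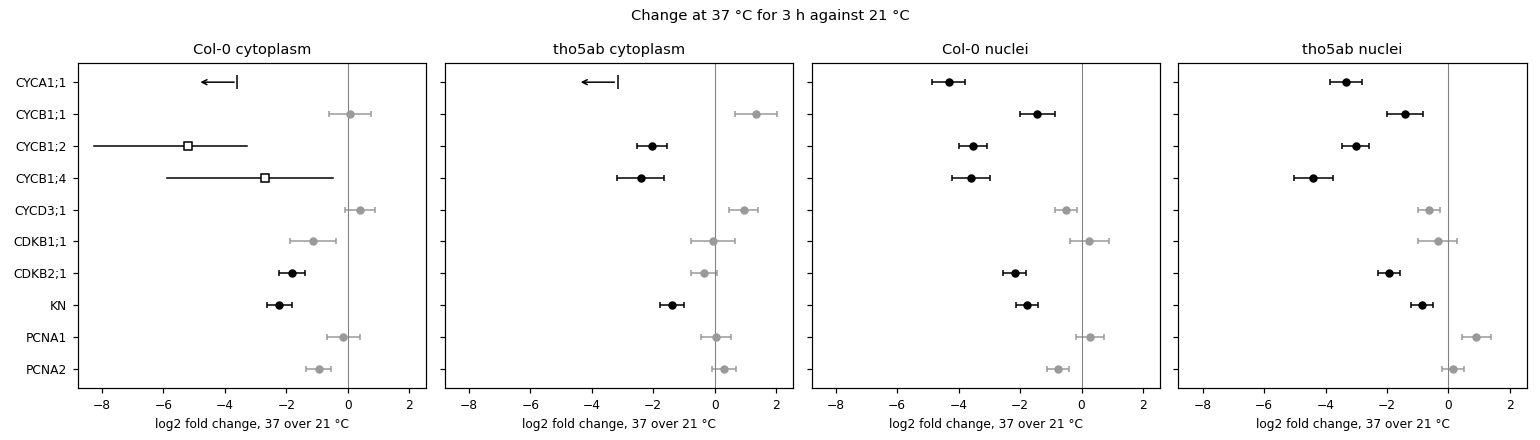
Log2 fold change ± SE of the 10 genes at 37 °C against 21 °C (horizontal axes) in the 4 combinations of genotype and fraction, 6 against 6 libraries each, with black points for genes past the threshold and grey for the rest. Arrows are bounds where 37 °C had 0 counts, and open squares with lines are ratios of summed counts with their 95% counting interval where a group had 3 counts or fewer. The mitotic cyclins, CDKB2;1 and KN lie left of 0 in nuclei of both genotypes, and the D-type cyclin, CDKB1;1 and the PCNA genes are grey throughout.

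Of 9 shoot meristem markers, 3 were tested, and 1 of them, the homeobox gene KNAT1, fell in all 4 comparisons, with log2 fold changes of −1.40 and −1.002 in cytoplasm and nuclei of Col-0 and −2.34 and −1.67 in those of tho5ab. The summed level of the 9 ran from 28.1 to 38.4 CPM in Col-0 nuclei at 21 °C and from 16.3 to 29.1 CPM at 37 °C, and from 22.8 to 35.9 and from 14.3 to 18.0 CPM in tho5ab nuclei. In the cytoplasm it ran from 5.96 to 51.2 and from 10.2 to 29.7 CPM in Col-0, and from 15.0 to 28.3 and from 2.48 to 23.0 CPM in tho5ab. CLV3 was at 0 in both heated nuclear groups, and WUS and CLV3 were at 0 in all 4 cytoplasmic groups. Of all tested genes 19.7%, 23.8%, 20.0% and 27.1% fell (cytoplasm then nuclei of Col-0, then the same of tho5ab). In that order 24.7%, 21.9%, 22.2% and 25.1% rose. Lists of 3 to 5 markers are too short to set against these shares. Mesophyll markers moved too: 5 of 5 fell in Col-0 cytoplasm and 3 of 5 in tho5ab cytoplasm, while in nuclei 0 fell and 1 and 3 of 5 rose. Their summed level ran from 40748 to 58433 CPM at 21 °C and from 24112 to 29905 CPM at 37 °C in Col-0 cytoplasm, and from 34895 to 63947 and from 16384 to 39782 CPM in tho5ab cytoplasm. Of 3 phloem markers 1 fell in Col-0 cytoplasm and 2 in the other 3 comparisons, with 1 rising in each, and summed levels in Col-0 nuclei of 64.9 to 96.8 CPM at 21 °C and 41.1 to 57.1 CPM at 37 °C. Of 4 root hair markers 1 and 2 fell in the cytoplasm of Col-0 and tho5ab and 0 in nuclei, with summed levels in Col-0 cytoplasm of 80.7 to 227 CPM and then 3.25 to 50.5 CPM. All 4 had counts in every group, and whether roots were in the samples was not tested. The part of any of these cell types in the falls of the 10 genes was not tested. Flower markers summed to at most 6.18 CPM in any library.

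The comparison of tho5ab with Col-0 asked whether these transcripts differ between the genotypes. At 21 °C none of the 10 genes passed the edgeR test in either fraction. In the cytoplasm 3.58% of all genes did, and of the 10 genes 1 had an unadjusted p below 0.05 (CYCB1;4, 1.56 ± 0.70, edgeR adjusted p = 0.206), with 0 called by DESeq2's Wald test. In nuclei 21.5% of all genes passed, and of the 10 genes 0 had an unadjusted p below 0.05 and 0 were called by the Wald test. When only these nuclear groups were fitted, CYCB1;4 was called higher in tho5ab (0.80, edgeR adjusted p = 0.0155). The nuclear differences ran from −0.45 ± 0.56 for CYCB1;1 to 0.75 ± 0.53 for CYCB1;4. Under library totals the share of all calls that were higher in tho5ab went from 44.9% to 59.5% in the cytoplasm and from 59.1% to 49.0% in nuclei at 21 °C, and from 45.2% to 13.2% and from 53.9% to 28.9% at 37 °C, where the median of all genes moved by −0.31 and −0.30. With DESeq2's size factors the last share was 42.8%.

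At 37 °C, KN and PCNA2 were higher in tho5ab nuclei than in Col-0 nuclei, 2 of 10 genes where 18.5% of all genes were higher. KN stood at 0.860, 1.43 and 3.64 CPM in Col-0 and 3.57, 4.67 and 6.20 CPM in tho5ab, overlapping only at the edge, with a difference of 1.34 ± 0.36 (log2, edgeR adjusted p = 0.00305). PCNA2 stood at 0.796, 1.55 and 1.73 CPM in Col-0 and at 3.29, 3.55 and 3.72 CPM in tho5ab. Every tho5ab library lay above every Col-0 library, as for 20.6% of all genes, and the difference was 1.29 ± 0.37 (edgeR adjusted p = 0.00464). Both calls held in 17 of 17 alternative fits, with differences of 1.03 to 1.95 for KN and 0.99 to 1.35 for PCNA2. The 2 highest Col-0 values of KN, 3.33 and 3.64 CPM, were the 2 libraries with high opposite-strand counts, and the other 4 ran from 0.860 to 1.44 CPM. Without such libraries its difference was 1.95 (edgeR adjusted p = 1.89e-04). Of the neighbours on the opposite strand, NPQ1 had means of 54.9 CPM in Col-0 and 54.0 CPM in tho5ab. ENOC, which overlaps PCNA2 by 279 bp, had means of 19.9 and 15.5 CPM. How far reads of these neighbours entered the KN and PCNA2 counts was not tested. PCNA1, which is 85.8% identical to PCNA2 over the aligned part, differed by 0.32 ± 0.46 (edgeR adjusted p = 0.631).

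In the cytoplasm at 37 °C, CYCB1;2 was higher in tho5ab, 1 of 10 genes where 6.37% of all genes were higher. The 6 tho5ab libraries had 26 counts and the 6 Col-0 libraries 2, a scaled ratio of 16.1 with a counting interval of 4.03 to 140 (edgeR adjusted p = 6.89e-04). Of the 26 counts 13 were in replicate 6 and 8 in replicate 7, and the fitted difference of 3.89 went to 2.99 (edgeR adjusted p = 0.0267) without replicate 6 and to 4.83 and 4.65 without replicates 4 and 5. The ranges of 0 to 13.0 and 0 to 0.812 CPM overlapped at 0, and the call was kept in 15 of 16 alternative fits and lost (edgeR adjusted p = 0.0754) when only these groups were fitted. KN (1.11 ± 0.44, edgeR adjusted p = 0.0834) and PCNA2 (1.05 ± 0.41, edgeR adjusted p = 0.0748) did not pass, though DESeq2's Wald test called both. The A-type cyclin had 0 counts in both genotypes, so no ratio was formed. The median difference of the 10 genes was 0.90, beside −0.06 over all tested genes. The stomatal lineage markers, another source of dividing cells, summed to 19.3 to 77.0 CPM in tho5ab and 28.8 to 53.4 CPM in Col-0 heated cytoplasm. In heated nuclei they summed to 199 to 282 CPM in tho5ab and 87.7 to 147 CPM in Col-0, with FAMA higher by 1.29 ± 0.26. In nuclei at 21 °C, where neither KN nor PCNA2 passed between genotypes, they summed to 221 to 471 CPM in tho5ab and 135 to 189 CPM in Col-0. The part of these markers in the nuclear differences of KN and PCNA2 at 37 °C was not tested.

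**Figure D4:**
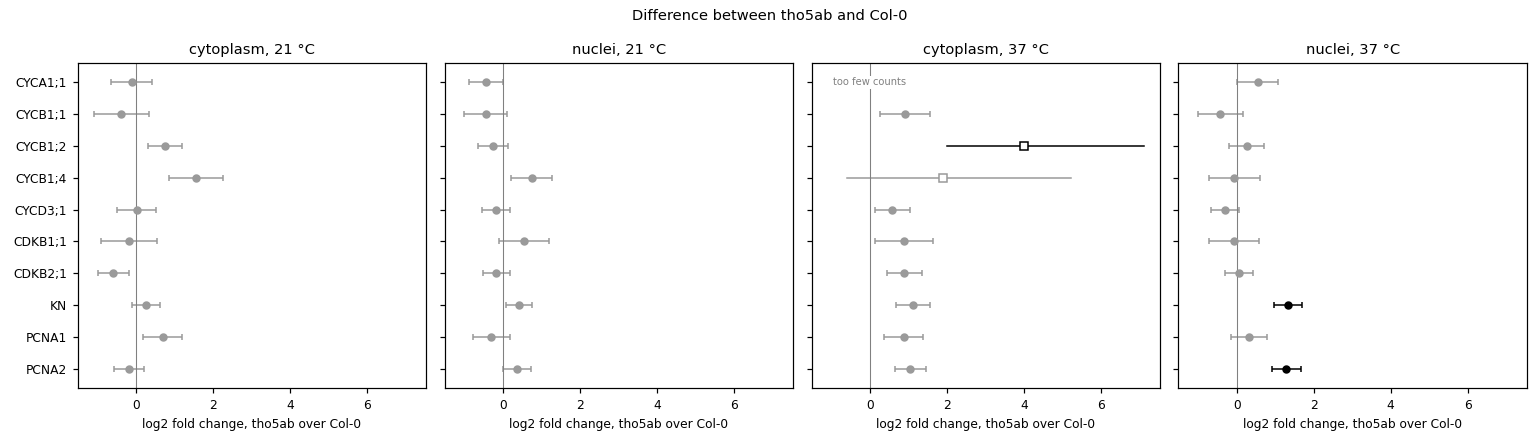
Log2 difference ± SE of the 10 genes in tho5ab against Col-0 (horizontal axes) in the 4 combinations of fraction and temperature, 6 against 6 libraries each, with black for genes past the threshold and grey for the rest. Open squares with lines are ratios of summed counts with their 95% counting interval (CYCB1;2 and CYCB1;4), and "too few counts" marks CYCA1;1 where both groups had 0. KN and PCNA2 are black in nuclei at 37 °C, CYCB1;2 in the cytoplasm at 37 °C, and no gene is black at 21 °C.

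Whether heat acted differently in the 2 genotypes was tested as an interaction. In nuclei 0 of 10 genes passed (3.69% of all genes did, 0 of the 10 had an unadjusted p below 0.05, and DESeq2's Wald test called 0), with interactions of 0.92 ± 0.50 for KN and 0.92 ± 0.51 for PCNA2 (edgeR adjusted p = 0.450 and 0.479). The PCNA2 interaction was called when only the nuclear groups were fitted (1.01, edgeR adjusted p = 0.0215). In the cytoplasm 0 of 10 passed as well (4.02% of all genes, 3 of the 10 with an unadjusted p below 0.05, and 1 called by the Wald test), the closest being CYCB1;2 at 3.15 ± 0.98 (edgeR adjusted p = 0.0529). The fall of CDKB2;1 in the cytoplasm, past the threshold in Col-0 and not in tho5ab, was thus not shown to differ between them (1.48 ± 0.60, edgeR adjusted p = 0.149). The genotype difference of CYCB1;2 at 37 °C did differ between fractions, being smaller in nuclei by 3.64 ± 0.98 on the log2 scale (edgeR adjusted p = 0.00656), and 1 of 10 genes passed in that direction against 4.81% of all genes. It was lost on leaving out replicate 6 (−2.74, edgeR adjusted p = 0.0868). At 21 °C 0 of 10 passed that test (6.4% of all genes, 0 of 10 with an unadjusted p below 0.05 and 0 by the Wald test). In tho5ab, heat acted more negatively in nuclei than in the cytoplasm on CYCB1;1 (−2.76 ± 0.90, edgeR adjusted p = 0.0256) and CDKB2;1 (−1.61 ± 0.55, edgeR adjusted p = 0.0356), 2 of 10 genes against 8.07% of all. The CYCB1;1 call was lost on leaving out replicate 2, 5 or 6 (−2.63, −2.49 and −2.10), and the CDKB2;1 call held in 6 of 17 alternative fits and was lost without replicate 1, 2, 4 or 7 (−1.13, −1.81, −1.56 and −1.47). In Col-0 0 of 10 passed (16.0% of all genes, 0 with an unadjusted p below 0.05 and 0 by the Wald test).

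Between fractions, several of the transcripts were lower in nuclei and none passed the edgeR test as higher. Relative to the scaled library, 5 of 10 were lower in nuclei than in the cytoplasm in Col-0 at 21 °C (28.0% of all genes were), 6 in Col-0 at 37 °C (28.9%), and 5 (27.4%) and 9 (26.9%) in tho5ab at the same temperatures, and 0 were higher, where 38.9%, 32.6%, 40.5% and 37.0% of all genes were. At an unadjusted p below 0.05 0 were higher too, while DESeq2's Wald test called the D-type cyclin higher in nuclei at 21 °C in both genotypes. KN was lower by 2.45 ± 0.37 and 2.29 ± 0.36 on the log2 scale in Col-0 and tho5ab at 21 °C (edgeR adjusted p = 8.62e-08 and 3.02e-07). Its cytoplasmic libraries at 21 °C, from 13.6 to 67.9 CPM in Col-0, all lay above the nuclear ones, from 4.01 to 8.42 CPM. PCNA2 was lower by between 2.15 ± 0.39 and 2.71 ± 0.39 in the 4 comparisons, and kept the call under every alternative tried. PCNA1 and CDKB1;1 were lower in all 4 comparisons too, although CDKB1;1 in Col-0 at 37 °C lost its call in 9 alternative fits, while CYCB1;4, the D-type and the A-type cyclin did not pass at 21 °C in either genotype. The differences depend on the scaling: with library totals in place of TMM the median of all genes moved by 1.33, 1.35, 1.19 and 1.36 towards nuclei (Col-0 at 21 °C and 37 °C, then tho5ab), and the share of calls that were higher in nuclei went from 58.1% to 83.2% in Col-0 at 21 °C, from 53.0% to 84.4% in Col-0 at 37 °C, and from 59.6% to 82.2% and 57.9% to 85.01% in tho5ab. With DESeq2's size factors that share was 68.3%, 68.1%, 68.2% and 66.7%. With library totals 4, 1, 3 and 5 of the 10 genes were lower in nuclei and 2, 3, 1 and 1 higher. In Col-0 at 21 °C CDKB2;1 went from −1.17 to 0.16 with them (edgeR adjusted p = 0.687), and PCNA2 alone remained lower in Col-0 at 37 °C, where KN stood at −0.63 and PCNA1 at −0.72 (edgeR adjusted p = 0.169 and 0.197). In tho5ab the calls of CDKB1;1 at both temperatures, CYCB1;2 at 21 °C and KN, CYCB1;4 and the D-type cyclin at 37 °C were lost with library totals. In Col-0 at 37 °C the CYCB1;1 call was lost without replicate 2 (−1.56) and that of CDKB1;1 without replicate 5, 6 or 7 (−1.41, −1.37 and −1.72). In tho5ab at 37 °C the call of CYCB1;4 rested on replicate 7 (−2.17 with it and −0.02 without), and that of the D-type cyclin was lost without replicate 5 or 7 (−0.85 and −0.92).

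Over the 24 nuclear libraries the genes that fell with heat followed each other to unequal degrees, and CYCD3;1 followed some of them too. This is a description of libraries that share fraction, depth and heat. The correlation of the A-type cyclin on log2 CPM was r = 0.97 with CYCB1;2, 0.70 with CYCD3;1, 0.66 with KN and 0.63 with CYCB1;1. Against the mean profile of the 10 genes, to which each contributes, r was 0.92 for CYCA1;1 and for CYCB1;2, 0.88 for CDKB2;1, 0.87 for CYCB1;4 and 0.77 for KN. It was 0.67 for CYCB1;1, called lower in nuclei, and 0.71 for CYCD3;1, which was not. For PCNA2 it was 0.44, for CDKB1;1 0.07 and for PCNA1 −0.24. The 10 other genes most like that mean profile, of 15340 ranked, had r from 0.93 to 0.95. They were ATCSLC08 (a cellulose synthase-like gene), 4CL2 (phenylpropanoid synthesis), AIF1, RPA70D (a subunit of replication protein A) and the loci AT4G16970, AT4G15450, AT5G66230, AT5G48500, AT3G07320 and AT1G13670.

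Other genes of the pathway were counted in 7 lists. Over all tested genes 19.7%, 23.8%, 20.0% and 27.1% fell with heat (cytoplasm then nuclei of Col-0, then the same of tho5ab). In the same order, 24.7%, 21.9%, 22.2% and 25.1% rose. Of 10 tested A- and B-type cyclins not among the 10 genes above, 4 fell and 1 rose in cytoplasm of Col-0 and 6 and 0 in its nuclei, against 5 and 0 in either fraction of tho5ab, with nuclear medians of −1.62 and −1.51. CYCB2;4, an M-phase cyclin, went from a mean of 6.51 to 0.804 CPM in Col-0 nuclei (−3.00 ± 0.53, edgeR adjusted p = 7.98e-06), and the S-phase cyclin CYCA3;1 from 3.87 to 0.517 CPM (−2.93 ± 0.52, edgeR adjusted p = 1.26e-05). Of 20 tested replication genes, 8, 15, 9 and 12 fell (cytoplasm then nuclei of Col-0, then the same of tho5ab), and 1, 0, 1 and 2 rose, with medians of −1.06, −1.31, −0.88 and −1.18. MCM6, a subunit of the replicative helicase, fell in all 4, by between 1.96 ± 0.43 and 2.31 ± 0.37 on the log2 scale. CDT1A, which loads that helicase, fell by 2.86 ± 0.53 and 2.28 ± 0.52 in Col-0 and tho5ab nuclei.

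Of 28 tested genes of mitosis and cytokinesis, 14, 14, 13 and 12 fell and 3, 6, 2 and 6 rose, in the same order, with medians of −0.91, −0.79, −0.86 and −0.66. Among all tested genes 19.7%, 23.8%, 20.0% and 27.1% fell and 24.7%, 21.9%, 22.2% and 25.1% rose. TPX2, a spindle assembly factor, changed by −3.05 ± 0.46 and −3.28 ± 0.46 (log2) in Col-0 and tho5ab nuclei, and the phragmoplast kinesin PAKRP2 by −3.27 ± 0.42 and −3.38 ± 0.42. Other genes of this list rose, though no larger a share than of all genes. EDE1, a microtubule-binding protein of spindle and phragmoplast, rose by 3.04 ± 0.46 and 3.42 ± 0.48, and MAP65-3, which bundles phragmoplast microtubules, by 1.75 ± 0.27 and 1.44 ± 0.27 in the same nuclei (edgeR adjusted p from 4.95e-08 to 1.23e-05).

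**Figure D5:**
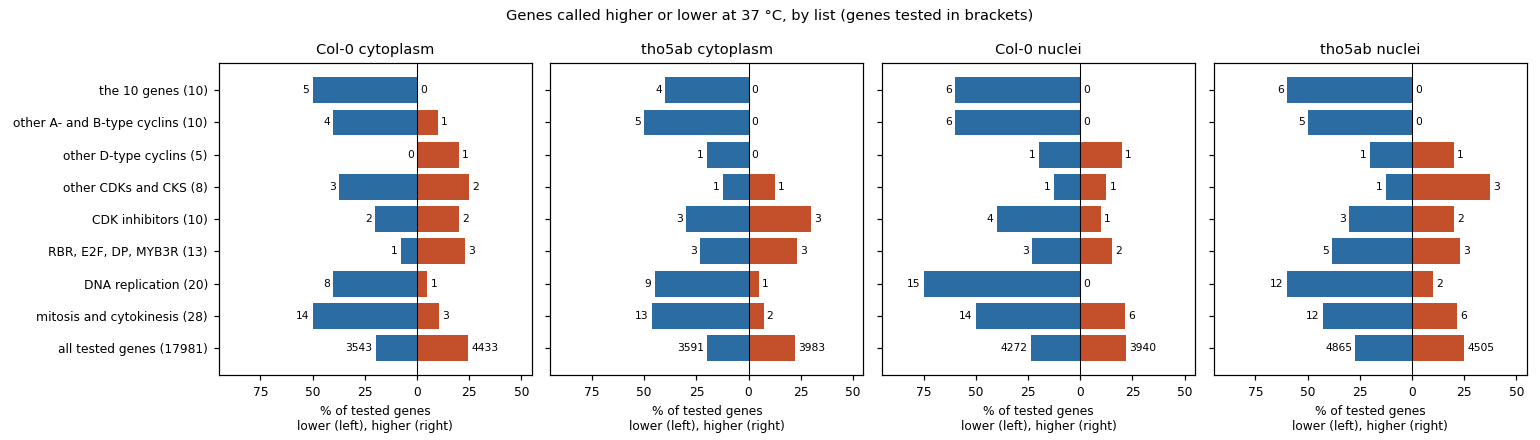
Percentage of tested genes that were lower (left of 0) or higher (right of 0) at 37 °C than at 21 °C, for the 10 genes, the 7 pathway lists and all tested genes, in the 4 combinations of genotype and fraction. The replication list reaches 15 of 20 genes lower in Col-0 nuclei, and the 10 genes have none higher.

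Regulators upstream were counted next. Of 13 tested RBR, E2F, DP and MYB3R genes, 3, 2, 3 and 3 rose and 1, 3, 3 and 5 fell, in that order, where 24.7%, 21.9%, 22.2% and 25.1% of all genes rose and 19.7%, 23.8%, 20.0% and 27.1% fell. Among them MYB3R3 and MYB3R5, of the family that binds the MSA element, rose by 1.48 ± 0.26 and 1.75 ± 0.33 in Col-0 nuclei (edgeR adjusted p = 5.86e-06 and 1.82e-05), and E2FA, an activator of S-phase genes, fell by 1.41 ± 0.37 (edgeR adjusted p = 0.00160). Of 10 tested kinase inhibitors 2, 1, 3 and 2 rose and 2, 4, 3 and 3 fell in the 4 comparisons. SMR5, an inhibitor known to respond to oxidative stress, went from a mean of 1.96 to 44.8 CPM in Col-0 cytoplasm (4.52 ± 0.49, edgeR adjusted p = 7.14e-11) and from 0.316 to 6.18 CPM in Col-0 nuclei (4.20 ± 0.41, edgeR adjusted p = 3.42e-12), and rose by 6.31 ± 0.61 and 3.63 ± 0.40 in tho5ab. Of 8 tested kinases and their binding subunits, 2, 1, 1 and 3 rose and 3, 1, 1 and 1 fell, and of 5 tested D-type cyclins 1, 1, 0 and 1 rose and 0, 1, 1 and 1 fell. CDKD;1, a kinase that activates other cyclin-dependent kinases, rose in all 4, by between 2.46 ± 0.74 and 3.78 ± 1.11. TPX2, MYB3R5, E2FA, SMR5, CDKD;1 and, below, SMR1 and KRP4 overlap a gene on the opposite strand, and with the strand setting not given, their counts cannot be separated from that gene's.

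Between genotypes, 4 of 10 tested inhibitors were higher in tho5ab nuclei at 21 °C and 3 of 10 at 37 °C, with 0 lower. Over all genes 12.7% and 18.5% were higher there. KRP1 had means of 65.0 CPM in Col-0 and 148 CPM in tho5ab at 21 °C (1.19 ± 0.28, edgeR adjusted p = 0.00114) and of 25.9 and 98.7 CPM at 37 °C (1.93 ± 0.29, edgeR adjusted p = 3.13e-07). SMR1, which holds back division in leaf epidermis, was higher by 1.33 ± 0.20 and 0.78 ± 0.20, and KRP4 by 0.64 ± 0.21 and 1.21 ± 0.21. In the cytoplasm at 37 °C KRP4 was lower in tho5ab, at 12.1 against 26.7 CPM (−1.15 ± 0.28, edgeR adjusted p = 0.00348), and SMR1 was higher at 21 °C (0.85 ± 0.21). In the mitosis list 5 of 28 genes were lower and 1 higher in tho5ab nuclei at each temperature, where 8.8% and 15.9% of all genes were lower, among them CDC20.1, an activator of the complex that degrades B-type cyclins (−0.79 ± 0.28 and −1.28 ± 0.29). Of the 20 replication genes 2 were higher and 2 lower in tho5ab nuclei at 37 °C, where 18.5% and 15.9% of all genes were. The higher ones were ORC1B (2.44 ± 0.48, edgeR adjusted p = 4.89e-05) and TSO2, a ribonucleotide reductase subunit (1.71 ± 0.20, edgeR adjusted p = 1.11e-09).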

How the data were processed

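RNA was counted in nuclear and cytoplasmic fractions of Arabidopsis, rosettes by the growth protocol and seedling by the tissue label. Per the submitters' processing notes, reads were handled with STAR 2.7.8a, Picard, UMI-tools and featureCounts on TAIR10, and how strand and multiply placed reads were treated is not given in the sources used here. The authors deposited unnormalized counts of 27420 genes in every library, and all 27420 identifiers matched the reference annotation. Per the labels' protocols, spike-in RNA was added and rRNA depleted.

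The model was edgeR 4.0.16 (R 4.3.3) with TMM scaling, filterByExpr over the 8 groups (17981 genes), all 48 libraries in 1 fit, quasi-likelihood F tests of 18 contrasts, and Benjamini-Hochberg adjustment over all tested genes with a threshold of 0.05. CPM are relative to TMM-scaled totals. The SE is the log2 fold change divided by the root of F, an approximation. A group with 0 counts was set to a floor of 3 counts over the group. Ratios of groups with 3 counts or fewer have exact 95% intervals. Intervals and floors cover counting error only. Correlations used log2 CPM with a prior count of 2. The fit was checked on simulated counts with 200 changed genes. Sequence copies were found with blastn 2.17.0+ at 85% identity or more, and promoters are the 250 bases before each gene's start in RefSeq's TAIR10.1 (that of CDKB2;1 is not reported here). DESeq2 1.42.0, other scalings and filters, the replicate block and left-out libraries were alternatives, and 2 of these (the groups compared with the genes of the full filter, and library totals) were added after seeing the data.

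The 10 genes, the pathway and marker lists and the tests were chosen with earlier results of these data known. Genes named beyond the 10 come from each list, up to 3 highest and 3 lowest log2 fold changes past the threshold in a comparison, of which the text gives a part, and the 10 genes most like the mean profile over the 24 nuclear libraries among those with a mean log2 CPM of at least 1. The marker FAMA was named after its values were seen.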

Additional observations from a re-analysis of the deposited data

Results flagged for a closer look

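In groups of 6 libraries, 7 values lay apart from the rest of their group by Dixon's 95% limit, out of 80 groups of 10 genes, and chance gives about 1 in 20 groups. CYCB1;1 reached 11.99 CPM in replicate 2 of heated Col-0 cytoplasm and 2.49 CPM in replicate 4 of heated tho5ab nuclei, a library with high opposite-strand counts. CYCB1;4 reached 1.62 CPM in replicate 4 of heated Col-0 cytoplasm, 0.626 CPM in replicate 4 of heated Col-0 nuclei and 4.13 CPM in replicate 7 of heated tho5ab cytoplasm. CDKB2;1 reached 7.85 CPM in replicate 6 of heated Col-0 cytoplasm. PCNA1 had its lowest value, 2.31 CPM, in replicate 1 of tho5ab cytoplasm at 21 °C. The 5 cytoplasmic values rest on 2 to 11 counts.

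For 3 genes an effect passed a test of its difference between groups, though none of the 3 calls held in every alternative fit. The difference of tho5ab from Col-0 in CYCB1;2 at 37 °C was smaller in nuclei than in the cytoplasm by 3.64 on the log2 scale (interaction −3.64). In tho5ab the effect of heat was more negative in nuclei than in the cytoplasm for CYCB1;1 (interaction −2.76) and CDKB2;1 (interaction −1.61). Of the alternative fits, 15 of 16 kept the call of CYCB1;2, 12 of 16 that of CYCB1;1 and 6 of 17 that of CDKB2;1.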

How the results depend on the processing

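Of 2998 values of the 10 genes under 17 other settings, 2737 kept their direction and side of the threshold. Of the rest, 135 changed sign with no call in either fit, 74 lost a call and 49 gained one. The last 3 changed sign with a call in the main or the other fit, not both. The 3 reversals came with library totals in place of TMM, in nuclei against cytoplasm: CDKB2;1 in Col-0 at 21 °C (0.16), and CYCD3;1 at 37 °C in Col-0 (1.10) and tho5ab (0.21). Only the CYCD3;1 value in Col-0 was called with library totals, and it was not called with TMM. The cause was not tested.

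Same-numbered libraries did not deviate together in every pair (correlations of deviations from −0.53 to 0.61). Between nuclei and cytoplasm the correlations ran from −0.16 to 0.29. With the noise of shallow cytoplasmic libraries, these values cannot decide whether the replicate numbers pair the samples. With the number as a block, the heat calls of CYCB1;4 in Col-0 cytoplasm, CYCB1;1 in Col-0 nuclei and KN in tho5ab nuclei were lost. Between fractions at 37 °C, those of CDKB1;1 in Col-0 and CYCB1;4 in tho5ab were lost. For heat by fraction in tho5ab that of CDKB2;1 was lost. The calls between genotypes were kept.

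With only the groups compared in the fit, where the filter kept fewer genes (with the genes of the full filter in brackets), calls among the 10 genes were 1 and 2 for heat in the cytoplasm of Col-0 and tho5ab, 0 (0) between genotypes in the cytoplasm at 37 °C, 1 (1) in nuclei at 21 °C, 3 and 5 between fractions at 37 °C in Col-0 and tho5ab, 1 (1) for genotype by heat in nuclei, 0 for genotype by fraction at 37 °C, and 0 (0) for heat by fraction in tho5ab. Over all genes they were 4807, 13458 (12582) and 3696 (4307) for heat in Col-0 cytoplasm, Col-0 nuclei and tho5ab cytoplasm, 80 (84), 1151 (1002), 8639 (8354) and 11355 (10867) between genotypes, and 124 (106) and 3795 (3927) for genotype by heat in cytoplasm and nuclei, beside 7976, 8212, 7574, 644, 2533, 3866, 6193, 723 and 663.

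DESeq2's Wald test called 3 of the 10 genes between genotypes in the cytoplasm at 37 °C, and it and DESeq2's size factors called 1 for genotype by heat there. Over all genes it called 1765, 3839, 7423 and 9514 between genotypes, 1869 and 2329 for genotype by heat, 2616 and 4556 for genotype by fraction at 21 °C and 37 °C (1151 and 2641 by edgeR) and 4641 and 4837 for heat by fraction in Col-0 and tho5ab (2878 and 3063). Without the libraries of high opposite-strand counts, 138 genes were called between genotypes in the cytoplasm at 21 °C, 288 and 386 for genotype by heat and 517 for genotype by fraction at 21 °C. Library totals gave 4078 genes between genotypes in the cytoplasm at 37 °C and 1923 for genotype by heat there. Heat by fraction in tho5ab gave 1 of the 10 genes with no filter, without libraries of high opposite-strand counts, without tho5ab replicate 7 and with library totals. Without tho5ab replicate 7, whose heated nuclei stood apart in THO5A, 782 genes were called between genotypes in the cytoplasm at 21 °C.

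Leaving out each replicate gave 425 to 722 genes between genotypes in the cytoplasm at 21 °C, 1 to 2 of the 10 genes there at 37 °C, 0 to 1 of 10 and 452 to 911 genes for genotype by heat in the cytoplasm, 386 to 668 in nuclei, 0 to 1 of 10 for genotype by fraction at 37 °C and 1 to 2 of 10 for heat by fraction in tho5ab. Cytoplasmic depth limits the rarest transcripts, with 0 to 13 counts of CDKB1;1 and 0 to 9 of CYCA1;1 in a library.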
